A study of Mus musculus with 18 samples.

Results

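The T-box genes described here were T (Brachyury), Eomes, Tbx6, Tbx1, Tbx2, Tbx3, Tbx4 and Tbx20, 8 of the 24498 genes in the deposited table. They were taken by name and not by a cut on measured values, but with earlier results of these data known. All 8 passed the filter on low values, a normalised read count of at least 10 in at least 3 libraries, which left 14711 genes for testing. Tbx4 passed only through its Neg libraries, and Tbx2 through its WT Neg libraries and 1 ΔHx Mid library, so these genes had to differ between groups.

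RNA was sequenced from cells of mouse embryos at embryonic day 7.5 in which both Foxa2 alleles carried the red fluorescent protein tagRFP. Foxa2 is a forkhead transcription factor needed for endoderm, node and notochord. Its fusion was wild type (FoxA2-WT-tagRFP, here WT) or lacked an α-helix of 10 amino acids (FoxA2-∆Hx-tagRFP, here ΔHx), so no group had an untagged allele. Each genotype was sorted into 3 gates with 3 biological replicates, 18 libraries in all: High held cells brighter than those of heterozygous embryos, Mid held cells from above autofluorescence up to that brightness, and Neg held the cells without signal. The mice were of a mixed C57Bl6/J and CD-1 background, the superovulated females were 3 to 5 weeks old, and the embryos were not sexed. About 10 embryos were pooled for a sort, and RNA equal to that of 1000 cells went into each SMART-Seq2 library. A library is therefore an average over cells and embryos: fewer cells of a type and less RNA per cell cannot be told apart. The labels do not say whether the replicates came from separate litters, so p-values measure the spread between these samples.

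T-box proteins are transcription factors that bind DNA through a shared domain, the T-box, and they act in turn as the germ layers form. Brachyury is the best known marker of the primitive streak and nascent mesoderm, is induced by Wnt signalling, and stays on in the node and notochord. Eomes, induced by Nodal, is needed in the streak for definitive endoderm and for the first, cardiac mesoderm, and is also made in visceral endoderm and extra-embryonic ectoderm. Tbx6 acts in paraxial mesoderm, where it drives the Notch ligand gene Dll1. Tbx1, Tbx2, Tbx3, Tbx4 and Tbx20 are best known from later organs: pharynx and outflow tract, heart chambers, limbs and allantois.

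The members lay on 6 chromosomes of GRCm38, the assembly also called mm10: T at chr17:8434423-8442496 on the plus strand, Eomes at chr9:118478212-118486132 (plus), Tbx6 at chr7:126781483-126785560 (plus), Tbx3 at chr5:119670669-119684724 (plus), Tbx20 at chr9:24718138-24774303 (minus), Tbx1 at chr16:18580979-18590671 (minus), Tbx2 at chr11:85832551-85841948 (plus) and Tbx4 at chr11:85886422-85916097 (plus). All were annotated as protein-coding. Tbx2 and Tbx4 were neighbours, 44.5 kb apart. Eomes shared 574 bases with the antisense gene Gm33460, and Tbx3 shared 697 bases with Tbx3os1. The libraries do not record strand, so antisense reads there could not be told apart from those of Eomes and Tbx3.

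The promoters of the 3 most abundant members, T, Eomes and Tbx6, are shown because the results turn most on these genes. Each is the 250 bases before the RefSeq start site in GRCm38.p6, all on the plus strand, at chr17:8434173-8434422 for T, chr9:118477939-118478188 for Eomes and chr7:126781233-126781482 for Tbx6. Capitals mark matches to the motifs searched.
T: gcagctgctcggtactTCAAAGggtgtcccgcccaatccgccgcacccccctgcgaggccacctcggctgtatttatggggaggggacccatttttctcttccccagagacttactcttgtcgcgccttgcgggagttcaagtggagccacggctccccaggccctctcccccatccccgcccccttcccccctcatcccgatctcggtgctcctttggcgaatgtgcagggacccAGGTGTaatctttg
Eomes: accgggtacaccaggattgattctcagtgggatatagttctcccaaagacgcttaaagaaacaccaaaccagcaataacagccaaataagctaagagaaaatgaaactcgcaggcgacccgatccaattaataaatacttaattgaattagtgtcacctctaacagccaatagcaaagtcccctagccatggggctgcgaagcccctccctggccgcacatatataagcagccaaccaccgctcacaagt
Tbx6: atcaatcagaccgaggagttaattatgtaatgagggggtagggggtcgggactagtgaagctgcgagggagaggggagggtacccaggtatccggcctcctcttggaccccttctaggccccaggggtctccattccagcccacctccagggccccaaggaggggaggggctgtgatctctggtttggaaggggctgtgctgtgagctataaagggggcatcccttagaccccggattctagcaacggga

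In all, 7 motifs were searched on both strands over windows that ran 50 bases further, past the start site. They were the T-box element AGGTGTGA (held by 1.28% of the 32851 promoters in the RefSeq table) and its core AGGTGT (13.7%), the forkhead motif TGTTTAC (3.65%) and its variant TGTTTGC (5.07%), the Tcf/Lef motif ATCAAAG of Wnt signalling (3.73%) and its core TCAAAG (5257 promoters), and the Smad motif CAGACA of Nodal signalling (21.0%). Each core lies inside its longer motif. The T window held TCAAAG at position -234 and AGGTGT at position -14, counted to the first base of the motif. The Eomes and Tbx6 windows held none of these letter strings. Of the 2 Tbx1 windows, 1 held AGGTGT at position -76, and the Tbx4 and Tbx20 windows held none. RefSeq windows were matched for 6 of the 8 members. A match is a string of letters, not a shown binding site.

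Depth was alike across the libraries, with 12302196 to 17194136 reads in genes and 15649 to 17917 genes with a read. Values below are read counts divided by the size factor of the library, so 1 read was worth 0.825 to 1.37. Differences are in log2(value + 1), with standard errors (SE) from a spread pooled over all 6 groups in limma, and p-values adjusted by Benjamini-Hochberg over all genes tested. Calls are adjusted p-values below 0.05. Foxa2, the sorted gene, ranged over 1556 to 2483 in the High libraries, 547 to 1229 in those of Mid and 20.3 to 62.5 in those of Neg.

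T was the leading T-box gene in every library and was highest in the High gate. WT High libraries read 15866, 10088 and 11319, with 3958, 2856 and 2517 in WT Mid, and 3105, 1579 and 1688 in WT Neg. The ΔHx libraries read 11514, 11811 and 12039 (High), 3189, 3571 and 2241 (Mid), and 2297, 2916 and 1534 (Neg). Every High library was above every Mid and Neg library, while Mid and Neg overlapped in both genotypes.

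T was thus 6.02-fold higher in High than in Neg in WT (log2 difference 2.59, SE 0.25, adjusted p = 1.10e-07) and 5.42-fold higher in ΔHx (2.44, SE 0.25, adjusted p = 2.84e-07). It was 3.99-fold higher in High than in Mid in WT (2.00, SE 0.25, adjusted p = 1.13e-05) and likewise higher in ΔHx (2.00, SE 0.25, adjusted p = 1.04e-05). Between Mid and Neg, T was not called in WT (0.59, adjusted p = 0.0783) or in ΔHx (0.44, adjusted p = 0.192). In WT this difference passed without WT Mid replicate 3 (adjusted p = 0.0450) or without WT Neg replicate 1 (adjusted p = 0.00938), the Neg library with the highest T. With the replicate number as a block in the fit it passed as well (adjusted p = 0.0315). Per kb of exon, T ranked 36 of 23563 genes with a length in WT High and 40 in ΔHx High, against ranks of 371 and 375 for Mid, and 614 and 573 for Neg. The summed value of the node and notochord markers measured (8 of 9 on the list) was highest in High, as T was: 15577 to 23233 in WT High, 2766 to 3637 in WT Mid and 185 to 349.8 in WT Neg. Unlike T, these sums did not overlap between Mid and Neg. Of that list, the node's homeobox gene Noto was at 6.65 ± 8.18 (SD, n = 3) in WT Neg, while T was at 2124 ± 851 there.

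**Figure D1:**
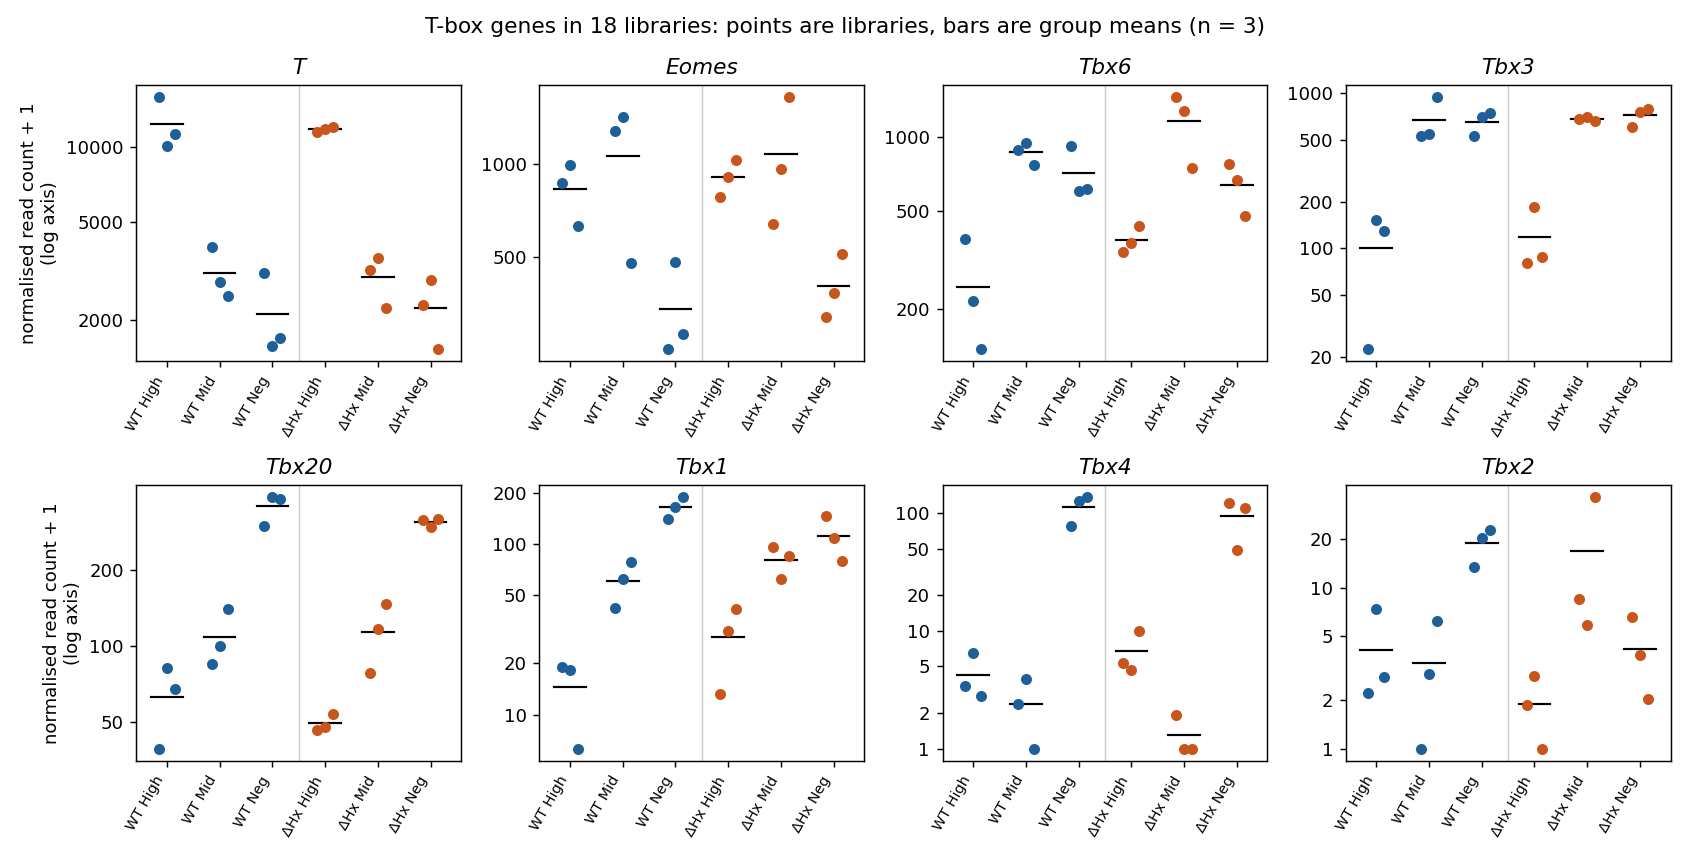
Normalised read count plus 1 of each T-box gene (y, log axis, a scale per gene) in the 6 groups (x). Points are libraries, WT blue and ΔHx orange, and bars are group means of 3 libraries. T was highest in High, Eomes was high in High and Mid, Tbx6 and Tbx3 were lowest in High, and Tbx20, Tbx1 and Tbx4 had their highest group mean in Neg.

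Eomes had a different pattern, high in both gates with Foxa2 signal and low in Neg. It read 866, 989 and 627 in WT High, 1275, 1417 and 477 in WT Mid, and 250, 478 and 280 in WT Neg. The ΔHx libraries held 777, 906 and 1030 (High), 636, 960 and 1640 (Mid), and 317.0, 381 and 507 (Neg). High libraries were all above the Neg libraries of their genotype, and the Mid libraries spread more widely than those of any other gate.

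Against Neg, Eomes was 2.52-fold higher in WT High (1.33, SE 0.36, adjusted p = 0.00514) and 2.28-fold higher in ΔHx High (1.19, SE 0.36, adjusted p = 0.0116). It was also 2.95-fold higher in WT Mid (1.56, SE 0.36, adjusted p = 0.00246), where WT Mid replicate 3 at 477 fell just below WT Neg replicate 2 at 478. In ΔHx Mid it was 2.53-fold higher (1.34, SE 0.36, adjusted p = 0.00717). High and Mid were not called apart, with -0.23 (95% interval -0.98 to 0.52) in WT and -0.16 in ΔHx (adjusted p = 0.789). The ΔHx calls were lost without 1 library each: High against Neg without ΔHx Neg replicate 1 (adjusted p = 0.0548) and Mid against Neg without ΔHx Mid replicate 3 (adjusted p = 0.0546).

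Within the Mid gate, the Eomes values of 1640, 1417, 1275, 960, 636 and 477 were those of ΔHx replicate 3, WT replicates 2 and 1, ΔHx replicates 2 and 1, and WT replicate 3. Gsc, a homeobox gene of the anterior streak, was 623, 391, 333, 213, 84.7 and 142 in the same order of libraries. Foxa2 was 1229, 812, 871, 611, 547 and 621. Both were highest in the library with the most Eomes. Mesp1, a bHLH gene of early cardiac mesoderm that Eomes is known to activate, was 621, 671, 1200.1, 885, 700 and 559 and did not keep that order. Gsc, Foxa2 (the sorted gene) and Mesp1 were picked from the Eomes list described below, whose other genes are not given by library here. Sox17, also on that list, spread less than Eomes within a group, at 1880 ± 176 (SD, n = 3) in WT Mid and 1282 ± 131 in ΔHx Mid. Summed visceral endoderm markers, all 10 measured, spanned 37747 to 46277 (WT Mid) and 41706 to 47140 (ΔHx Mid), against 1463 to 1627 (WT Neg) and 835 to 2161 (ΔHx Neg). Eomes is also made in that tissue, and the part of these cells in its Mid values was not tested. Eomes is made in extra-embryonic ectoderm too, and the 7 markers of that tissue summed to 2926 to 3113 in WT Mid and 1145 to 1609 in WT Neg, and to 2968 to 3755 and 1053 to 1386 in ΔHx. Rhox5 held most of that sum in Mid, at 2285 ± 139 (SD, n = 3) in WT Mid and 425 ± 157 in WT Neg. Elf5, a defining gene of the tissue, went the other way, at 4.32 ± 3.88 in WT Mid and 64.2 ± 19.8 in WT Neg, and at 8.18 ± 8.99 and 34.0 ± 17.3 in ΔHx. Definitive endoderm markers, 9 genes of which Cer1 and Sox17 are also on the Eomes list, were high in both gates where Eomes was: they summed to 44325 to 48096 in WT High, 29383 to 37692 in WT Mid and 5835 to 5922 in WT Neg. In ΔHx they summed to 40556 to 42333, 30448 to 35245 and 5716 to 6685. The part of these cells in the Eomes values was not tested either.

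**Figure D2:**
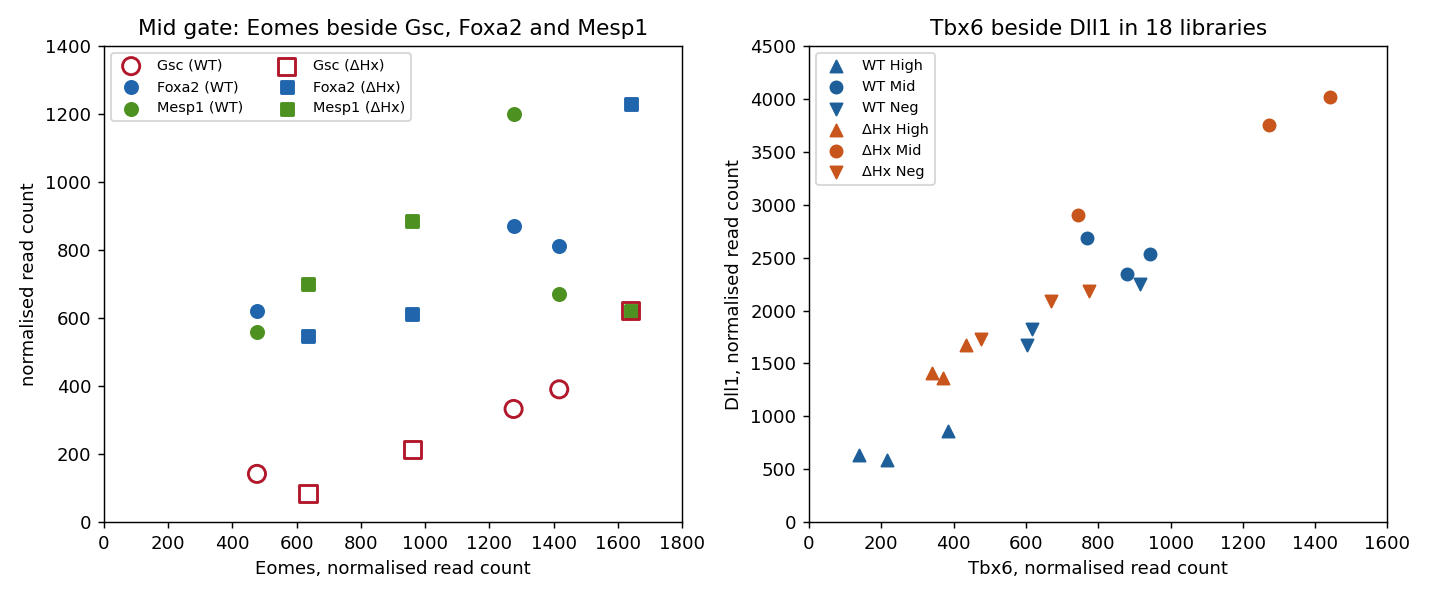
Left, Gsc (open red), Foxa2 (blue) and Mesp1 (green) against Eomes in the 6 Mid libraries, WT as circles and ΔHx as squares. Right, Dll1 against Tbx6 in all 18 libraries, by gate and genotype. All axes are normalised read counts: the High libraries of each genotype lie below its Mid and Neg libraries for Tbx6, and the Mid libraries reach the highest values of both genes.

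Tbx6 was lowest in the High gate, opposite to T. It read 385, 215 and 137 in WT High, 881, 945 and 769 in WT Mid, and 916, 603 and 616 in WT Neg. ΔHx libraries held 340.2, 371 and 434 (High), 1442, 1273 and 743 (Mid), and 776, 668 and 475 (Neg). In each genotype no High library reached a Mid or Neg library.

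In WT, Tbx6 was 3.10-fold lower in High than in Neg (-1.63, SE 0.29, adjusted p = 0.000152) and 3.82-fold lower than in Mid (-1.93, SE 0.29, adjusted p = 7.46e-05). In ΔHx, High was 2.92-fold below Mid (-1.54, SE 0.29, adjusted p = 0.000621), while High against Neg just missed the threshold (-0.72, SE 0.29, adjusted p = 0.0535). That last difference passed in edgeR (adjusted p = 0.0438) and DESeq2 (adjusted p = 0.0264) on the recovered reads, and in limma without ΔHx Neg replicate 3 (-0.92, adjusted p = 0.0306), the Neg library with the lowest Tbx6. With the replicate number as a block in the limma fit it passed as well (adjusted p = 0.0180). Tbx6 was called higher in Mid than in Neg in ΔHx (0.82, SE 0.29, adjusted p = 0.0352) but not in WT (0.30, adjusted p = 0.461). The ΔHx call was lost with no filter on low values (adjusted p = 0.0547) and without any 1 of 4 libraries: ΔHx Mid replicate 1 (adjusted p = 0.141) or 2 (0.114), or ΔHx Neg replicate 2 (0.0619) or 3 (0.157). The difference of these 2 gate effects was 0.52 (95% interval -0.34 to 1.38, adjusted p = 0.999) and was not called.

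Tbx3, a repressor known from yolk sac, heart and limb, split the gates most simply, low in High and not called apart between Mid and Neg. It read 21.6, 150.2 and 129 in WT High, 523, 543 and 933 in WT Mid, and 526, 694 and 736 in WT Neg. In ΔHx there were 78.9, 185 and 87.4 (High), 677, 697 and 653 (Mid), and 606, 757 and 785 (Neg). Tbx3 was 8.48-fold lower in High than in Neg in WT (-3.08, SE 0.48, adjusted p = 3.29e-05) and 6.51-fold lower in ΔHx (-2.70, SE 0.48, adjusted p = 0.000140). Against Mid it was 8.44-fold lower in WT (adjusted p = 9.47e-05) and 6.18-fold lower in ΔHx (adjusted p = 0.000428). Mid and Neg differed by -0.01 (95% interval -1.004 to 0.991) in WT and by -0.07 in ΔHx (adjusted p = 0.923).

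Tbx20, a regulator of heart precursors, was called in a step from Neg to Mid to High in both genotypes. In WT it read 298, 386 and 381 in Neg, 83.6, 99.3 and 139 in Mid, and 38.4, 81.0 and 66.5 in High. In ΔHx it read 313, 295 and 317 in Neg, 77.2, 116 and 146 in Mid, and 45.6, 47.1 and 52.8 in High. No 2 gates of a genotype overlapped. High was 5.88-fold below Neg in WT (-2.56, SE 0.28, adjusted p = 4.36e-07) and 6.25-fold below it in ΔHx (-2.64, SE 0.28, adjusted p = 3.26e-07), and Mid was 3.34-fold (adjusted p = 9.02e-05) and 2.80-fold (adjusted p = 0.000428) below Neg. High was below Mid in ΔHx (-1.16, SE 0.28, adjusted p = 0.00416) and in WT (-0.82, SE 0.28, adjusted p = 0.0363). The WT step from Mid to High was lost without WT High replicate 1 (-0.51, adjusted p = 0.214), without WT Mid replicate 2 (adjusted p = 0.0627) or 3 (0.153), in a fit of those groups alone (adjusted p = 0.165), with no filter (0.0518) and with equal totals (0.0595).

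Tbx1, known from pharyngeal and head mesoderm, was likewise highest on average in Neg. In WT it read 139, 164 and 188 in Neg, 41.1, 61.1 and 77.6 in Mid, and 17.98, 17.3 and 5.32 in High. In ΔHx it read 146, 108 and 78.5 in Neg, 94.9, 61.4 and 84.4 in Mid, and 12.3, 29.9 and 40.4 in High. The WT gates were all separate, whereas ΔHx Mid and ΔHx Neg overlapped. High was 12.6-fold below Neg in WT (-3.65, SE 0.45, adjusted p = 2.05e-06) and 4.22-fold below it in ΔHx (-2.08, SE 0.45, adjusted p = 0.000910). Mid was below Neg in WT (-1.47, SE 0.45, adjusted p = 0.0160), a call lost without WT Mid replicate 1 (adjusted p = 0.0732) or WT Neg replicate 3 (0.0603), and was not called in ΔHx (-0.44, adjusted p = 0.475). High was below Mid in WT (-2.18, adjusted p = 0.00126) and in ΔHx (-1.64, adjusted p = 0.0105), the latter lost without ΔHx High replicate 1 (adjusted p = 0.0723).

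Tbx4, a gene of the allantois and hindlimb, was nearly confined to the Neg libraries. It read 76.4, 126 and 136 in WT Neg and 122, 47.6 and 109 in ΔHx Neg. All other libraries held 0 to 9.07. The reads summed over the 3 libraries of a group were 336 in WT Neg and 266 in ΔHx Neg, against 10 and 20 in High and 4 and 1 in Mid, in WT and ΔHx.

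The fitted differences between High and Neg were -4.81 in WT (SE 0.61, adjusted p = 3.40e-06) and -3.79 in ΔHx (SE 0.61, adjusted p = 5.81e-05), and between Mid and Neg -5.72 (adjusted p = 8.93e-07) and -6.13 (adjusted p = 4.38e-07). These sizes depend on the value of 1 added before the logarithm. Tbx4 passed the filter only through its Neg libraries, so it had to differ from Neg, and these 4 differences are a description. Counted by reads, ΔHx Neg held 269.7 times the level of ΔHx Mid, with an exact 95% interval of 48.0 to 10693 that covers counting error only. Tbx4 was also called higher in ΔHx High than in ΔHx Mid (2.34, SE 0.61, adjusted p = 0.00802), 20 reads against 1, a ratio of 17.2 (exact interval 2.75 to 714). The difference was 0.98 with 5 added (adjusted p = 0.0605) and the call was also lost with those groups alone (adjusted p = 0.0791). Markers of extra-embryonic and lateral mesoderm, 7 genes, moved with Tbx4: they summed to 3489 to 4809 in WT Neg, 460.3 to 479 in WT Mid and 649.7 to 807 in WT High. Of these, Hand1 was at 1501 ± 185 (SD, n = 3) in WT Neg and 16.03 ± 12.8 in WT Mid. The part of these cells in the Tbx4 result was not tested.

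Tbx2, the neighbour of Tbx4 and a repressor in heart and limb, was the least abundant member. It read 12.3, 19.3 and 21.7 in WT Neg, 5.58, 2.80 and 1.03 in ΔHx Neg, and 7.44, 4.88 and 35.3 in ΔHx Mid. The last of these, ΔHx Mid replicate 3, held 31 of the 44 reads of its group. The other groups held 10 reads (WT High), 8 (WT Mid) and 3 (ΔHx High). Tbx2 passed the filter through its WT Neg libraries and 1 ΔHx Mid library, so it had to differ, and its calls are a description. In WT, Tbx2 was called lower in High (-2.36, SE 0.83, adjusted p = 0.0257) and in Mid (-2.80, SE 0.83, adjusted p = 0.0135) than in Neg. In ΔHx, neither of those differences was called (adjusted p = 0.308 and 0.117). There High was called below Mid (-2.81, SE 0.83, adjusted p = 0.0169), and by reads ΔHx Mid held 17.03 times the level of ΔHx High (exact interval 5.46 to 85.7). That interval covers counting error only, not the spread between libraries.

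All 3 Tbx2 calls were lost without single libraries. High against Neg in WT was lost without WT High replicate 1 (adjusted p = 0.0959) or 3 (0.0705) or WT Neg replicate 2 (0.0692) or 3 (0.0793). Mid against Neg in WT was lost without WT Mid replicate 1 (0.0802) or WT Neg replicate 3 (0.0510), and High against Mid in ΔHx without ΔHx High replicate 3 (0.0671) or ΔHx Mid replicate 3 (0.112). With 5 added before the logarithm these differences were -1.52, -1.66 and -1.54.

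**Figure D3:**
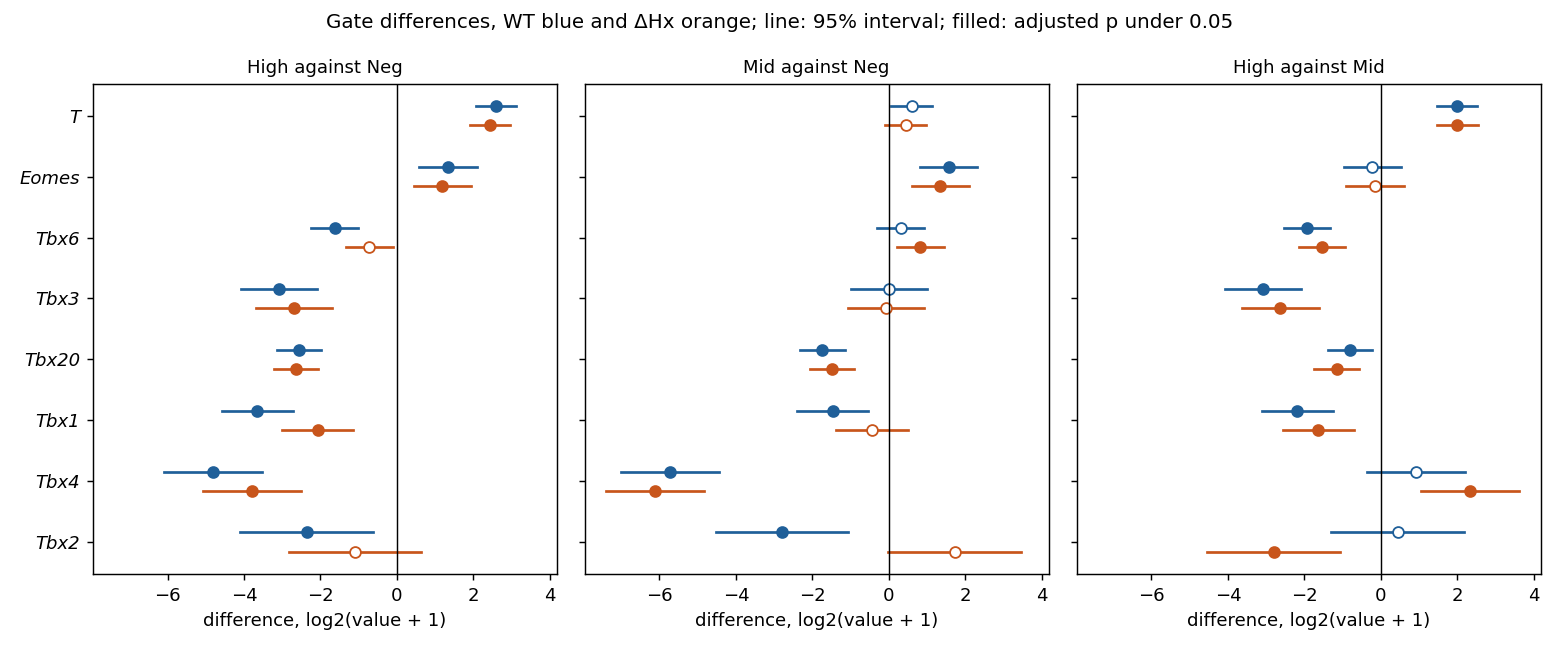
Difference between gates in log2(value + 1) (x) for each T-box gene (rows), WT in blue and ΔHx in orange, with 95% intervals not adjusted over genes. Filled points passed an adjusted p of 0.05. T lies to the right and Tbx6, Tbx3, Tbx20, Tbx1 and Tbx4 to the left for High against Neg in both genotypes, and only Tbx6 in ΔHx among these is open.

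Counted together, all 8 members were called between WT High and WT Neg, where 44.4% of all genes tested were called. In High 2 were higher (22.6% of all genes) and 6 lower (21.8%). Between WT Mid and WT Neg 5 were called (32.9% of all genes), 1 higher (17.4%) and 4 lower (15.4%). WT High against WT Mid also gave 5 (24.4% of all genes), 1 higher (12.1%) and 4 lower (12.4%). In ΔHx, 6 were called for High against Neg (42.6% of all genes), 2 higher (21.5%) and 4 lower (21.1%). Mid against Neg gave 4 there (34.3% of all genes), 2 higher (17.9%) and 2 lower (16.5%), and High against Mid 7 (25.6% of all genes), 2 higher (13.3%) and 5 lower (12.3%). The members' median difference was -2.46 in WT and -1.58 in ΔHx for High against Neg, where the median over all genes was 0.02 and 0.01. Tbx2 and Tbx4 could only pass the filter by differing. Of the 6 members without them, 6 were called for High against Neg in WT, 2 higher and 4 lower (median -2.09), and 5 in ΔHx, 2 higher and 3 lower (median -1.40). Those 6 gave 3 calls for Mid against Neg in each genotype and 5 for High against Mid in each. With all 8, the count of 5 for WT Mid against WT Neg was 3 without WT Mid replicate 1 and 3 without WT Neg replicate 3.

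On a per-kb scale, T was first in every group, at 5367 ± 1315 (SD, n = 3) in WT High, 1343 ± 325 in WT Mid and 918 ± 368 in WT Neg, and no library of the second gene overlapped it. Eomes was second in both High groups, overlapping Tbx6 in WT (199 ± 44.4 against 136 ± 70.2) and in ΔHx (218 ± 30.4 against 212 ± 26.4). In Mid and Neg of both genotypes Tbx6 was second and separate from the gene below it. That gene was Eomes in Mid (254 ± 122 in WT) and Tbx3 in Neg (98.4 ± 16.8 in WT), where Tbx3 overlapped Eomes. Tbx1, Tbx4 and Tbx20 overlapped in sequence in Neg (46.5 ± 6.87, 33.1 ± 9.36 and 29.6 ± 4.13 in WT), and Tbx2 was last there. These orders use the exons of all isoforms. By the length of the longest isoform, Tbx6 overlapped Eomes in ΔHx Mid. By that length Tbx20 also stood above Tbx4 in Neg, and Tbx1 was separate from Tbx20 in WT Neg.

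As a share of the summed level per kb of the 17 T-box genes of the table, T made up 89.2% to 93.0% in WT High and 89.1% to 90.5% in ΔHx High. In the other groups it made up 47.0% to 62.9%. Tbx6 was the main partner outside High, at 17.97% to 22.6% in WT Mid, 20.0% to 30.9% in ΔHx Mid, and from 23.1% to 23.3% in WT Neg, with 18.4% to 23.9% in ΔHx Neg. In High its share was 2.87%, 2.44% and 1.45% in WT and 3.43%, 3.60% and 4.12% in ΔHx. The 2 genotypes do not overlap there. The ratio of T to Tbx6 per kb was 32.1, 36.6 and 64.2 in WT High and 26.4, 24.8 and 21.6 in ΔHx High, likewise without overlap. For single genes, 10.9% of all those tested did not overlap between the genotypes in High. The ratio of T to Eomes did overlap there (18.3 to 32.9 in WT, 21.0 to 26.6 in ΔHx). So did that of Tbx6 to Eomes (0.50 to 1.02 in WT, 0.94 to 1.01 in ΔHx). These shares and ratios are a description, and their difference was not tested. Outside High the ratio of T to Tbx6 lay between 1.72 and 3.50.

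**Figure D4:**
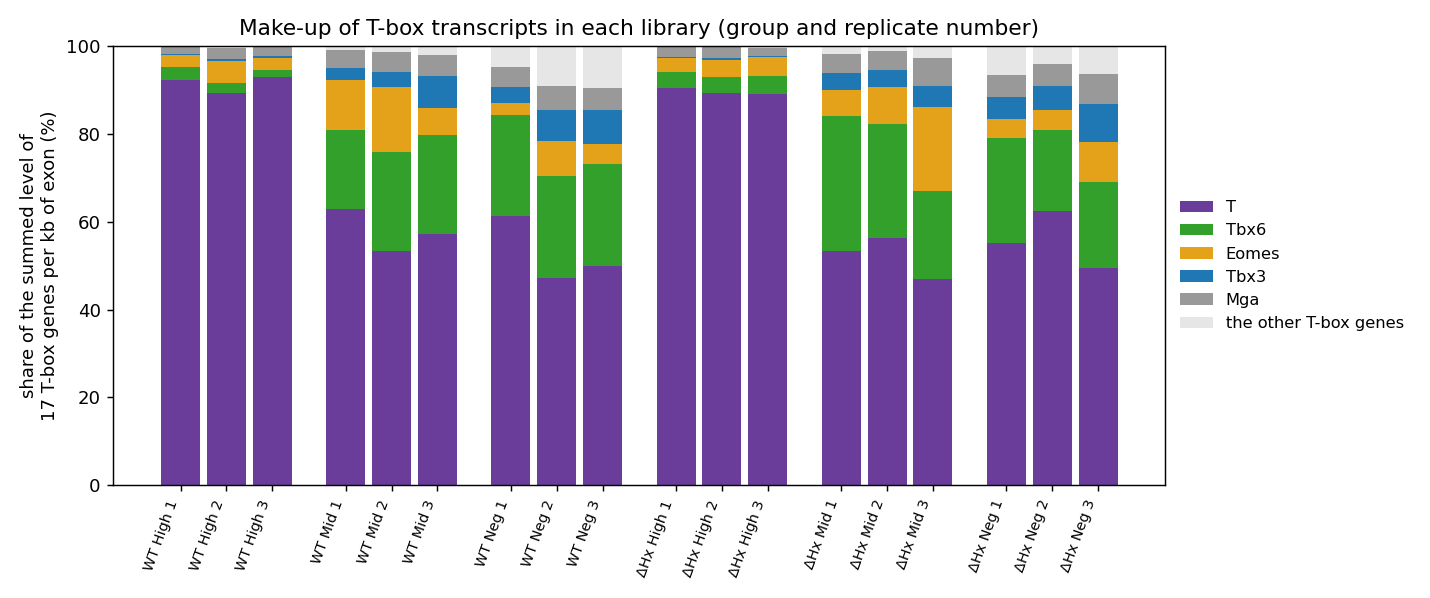
Share (y, percent) of each T-box gene in the summed level per kb of exon of 17 T-box genes, in each of the 18 libraries (x, group and replicate number). T fills 89.1% to 93.0% of every High library and 47.0% to 62.9% of the Mid and Neg libraries, where Tbx6 and Eomes take most of the rest.

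Of the 9 other T-box genes in the table, 3 passed the filter. Mga, whose protein joins a T-box to a domain that pairs with Max, was at 1890 ± 176 (SD, n = 3) in WT High and 1265 ± 183 in WT Neg (0.58, SE 0.12, adjusted p = 0.000588), and at 1886 ± 251 and 1434 ± 78.1 in ΔHx (0.39, SE 0.12, adjusted p = 0.0136). Tbx5, a heart and forelimb gene 148 kb from Tbx3, held 63 reads in WT Neg (21.8 ± 8.39), 2 in WT High and 0 in WT Mid. It was 33.2 times higher by reads in WT Neg than in WT High (exact interval 8.82 to 280, counting error only) and at least 7.05-fold higher than in WT Mid, taking the floor of 3 reads per library. Tbx5 passed the filter only through its Neg libraries (12.2 to 27.1 in WT and 13.4 to 26.8 in ΔHx), so it had to differ, and these values are a description. Tbx21 was the third gene to pass, with 2 to 21 reads a group.

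None of the 8 members was called between ΔHx and WT in High (0.122% of all genes tested were called), in Mid (0.401%), in Neg (0.245%) or as a mean over the gates (0.843%). edgeR and DESeq2 on the recovered reads called none in these comparisons either. At an unadjusted p under 0.05 there were 2 in High (Tbx6 and Tbx1, where 7.86% of all genes passed), 1 in Mid (Tbx2, 7.96%), 1 in Neg (Tbx2, 4.17%) and 0 for the mean over the gates (9.58%). The pools also differed in sex-linked RNA: the Y-linked gene Eif2s3y spanned 219 to 293 in WT High and 389 to 540.1 in ΔHx High, 111 to 272 and 375 to 409 in Mid, and 221 to 377 and 468 to 682 in Neg. The part of this in the genotype results, those of Dll1, Cyp26a1 and Nodal among them, was not tested. The genotypes did not overlap for 0 members in High and 0 in Mid (10.9% of all genes in each) and for 1 in Neg, Tbx2 (12.7%).

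For T the genotype differences lay near 0. It was -0.05 in High (95% interval -0.58 to 0.48), -0.05 in Mid (-0.58 to 0.48) and 0.10 in Neg (-0.42 to 0.63), and the mean over the gates had an interval of -0.30 to 0.31. Group means in High were 12424 ± 3044 (SD, n = 3) in WT and 11788 ± 263 in ΔHx. Eomes differed by 0.14 in High (-0.61 to 0.89), 0.07 in Mid (-0.68 to 0.82) and 0.29 in Neg (-0.46 to 1.04), so that a 2-fold rise stayed inside the interval in Neg. These intervals are not adjusted over genes.

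Tbx6 was at 246 ± 127 (SD, n = 3) in WT High and 382 ± 47.6 in ΔHx High, a difference of 0.75 (SE 0.29, 95% interval 0.14 to 1.36, adjusted p = 0.516) that did not pass over all genes. WT High replicate 1, at 385, was above ΔHx replicates 1 and 2, so the groups overlapped. In Mid it differed by 0.36 (-0.25 to 0.97, adjusted p = 0.882) and in Neg by -0.16 (-0.77 to 0.45, adjusted p = 1). Dll1, the Notch ligand gene, moved beside it: 862, 590 and 637 in WT High against 1412, 1365 and 1672 in ΔHx High, which was called (1.10, SE 0.15, adjusted p = 0.00129). Summed markers of nascent and paraxial mesoderm, 7 genes, were 1101 to 1793 in WT High and 2128 to 2203 in ΔHx High, against 6499 to 9656 over the Mid libraries of both genotypes. Dll1 is itself 1 of these 7 genes and held most of the ΔHx High sum. Other genes of the list went both ways between WT High and ΔHx High. Mesp1 was at 37.5 ± 25.3 and 74.0 ± 37.0, and Snai1 at 98.0 ± 21.1 and 108 ± 20.3. Lefty2 was at 195 ± 214 and 97.6 ± 75.5, and Mesp2 at 6.39 ± 7.96 and 4.48 ± 4.53. The part of mesoderm cells in the Tbx6 and Dll1 values of the High gate was not tested.

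Tbx1 differed by 0.98 in High (SE 0.45, 95% interval 0.05 to 1.92, adjusted p = 0.607), from 13.5 ± 7.12 (SD, n = 3) in WT to 27.5 ± 14.2 in ΔHx. Tbx2 differed by 2.21 in Mid (0.48 to 3.94, adjusted p = 0.432) and by -2.31 in Neg (-4.04 to -0.58, adjusted p = 0.750), on 8 against 44 reads in Mid and 53 against 9 in Neg. Tbx3, Tbx4 and Tbx20 had intervals that included 0 in all 3 gates. The widest of these 9 intervals belonged to Tbx4, -1.62 to 0.94 in Neg, and the narrowest to Tbx20, such as -0.52 to 0.64 in Mid.

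**Figure D5:**
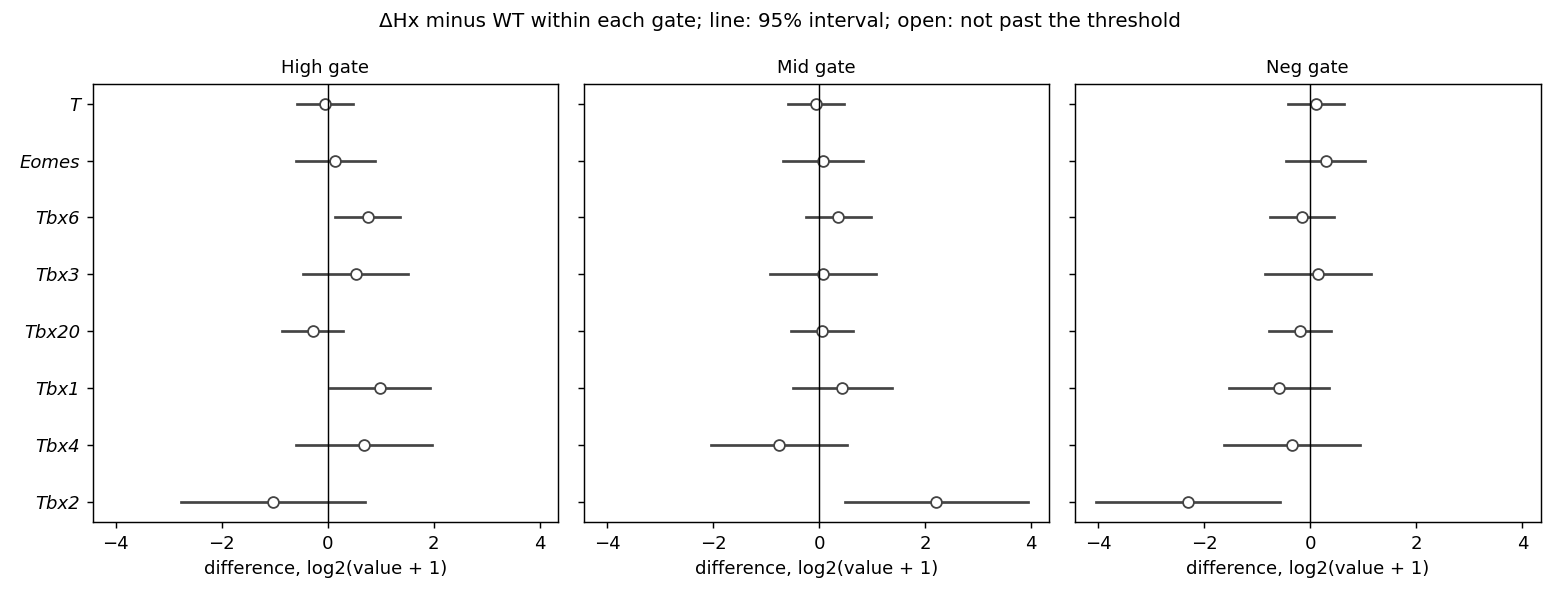
Difference of ΔHx minus WT in log2(value + 1) (x) for each T-box gene (rows) in the 3 gates, with 95% intervals not adjusted over genes. All points are open because no adjusted p was under 0.05. T lies within 0.11 of 0 in each gate, and Tbx2 has the widest intervals.

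Whether the genotype difference itself varied between gates was tested by interaction terms. No member was called for High minus Neg (0.0% of all genes called), Mid minus Neg (0.0068%) or High minus Mid (0.0136%), and edgeR and DESeq2 called none. At an unadjusted p under 0.05 there were Tbx6 and Tbx1 for High minus Neg (3.15% of all genes), Tbx2 for Mid minus Neg (4.32%) and Tbx2 for High minus Mid (6.13%). The values were 0.91 for Tbx6 (SE 0.41, adjusted p = 0.998) and 1.58 for Tbx1 (SE 0.63, adjusted p = 0.998). For Tbx2 they were 4.52 for Mid minus Neg (SE 1.17, adjusted p = 0.537) and -3.24 for High minus Mid (adjusted p = 0.657), with all its groups at or under 53 reads.

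Signals that lie upstream of the T-box genes in the embryo, 16 Wnt, Nodal, Bmp and Fgf genes, were all tested. For High against Neg 6 were higher and 7 lower in each genotype, where 22.6% and 21.8% of all genes were in WT and 21.5% and 21.1% in ΔHx. For Mid against Neg 3 were higher and 3 lower in each (17.4% and 15.4% of all genes in WT, 17.9% and 16.5% in ΔHx), while High against Mid gave 4 and 4 in WT (12.1% and 12.4%) and 5 and 6 in ΔHx (13.3% and 12.3%). The list's median for High against Neg was -0.55 in WT and -0.31 in ΔHx, against 0.02 and 0.01 over all genes. Nodal, the ligand that induces Eomes, was at 1376 ± 106 (SD, n = 3) in WT High, 514 ± 69.7 in WT Mid and 64.5 ± 20.6 in WT Neg, and its High against Neg difference was 4.44 (SE 0.20, adjusted p = 7.40e-12). Furin, a protease that processes Nodal, followed the same order of gates at 844 ± 174, 340 ± 56.0 and 138 ± 15.9. Other genes of the list went the other way: Lef1, a nuclear effector of Wnt signals, was at 498 ± 139 in WT High, 1835 ± 47.5 in WT Mid and 2123 ± 214 in WT Neg, and Fgf4 was at 24.0 ± 18.8, 205 ± 13.9 and 262 ± 83.8. Bmp4, a ligand of posterior and extra-embryonic mesoderm, was lower in WT Mid than in WT Neg (63.7 ± 31.7 against 517 ± 26.4, adjusted p = 1.35e-07). Nodal was the only gene of this list called between genotypes in a single gate: 127 ± 21.1 in ΔHx Neg against 64.5 ± 20.6 in WT Neg (1.01, SE 0.20, adjusted p = 0.0392). This call was lost in edgeR (adjusted p = 0.111) and kept in DESeq2 (adjusted p = 0.00332). It was also lost with no filter (0.0591), with quantile normalisation (0.0503), with those groups alone (0.307), and without any 1 of WT Neg replicates 1 (0.163) and 3 (0.148) and ΔHx Neg replicates 1 (0.0883), 2 (0.144) and 3 (0.237). Eomes in Neg was 402 ± 96.6 in ΔHx and 336 ± 124 in WT, which was not called.

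Among genes known to act with or after Brachyury and Tbx6, 17 of 18 were tested. For High against Neg 5 were higher and 10 lower in WT (22.6% and 21.8% of all genes) and 5 and 9 in ΔHx (21.5% and 21.1%). Mid against Neg gave 5 and 3 in WT (17.4% and 15.4% of all genes) and 6 and 1 in ΔHx (17.9% and 16.5%), and High against Mid 3 and 6 in WT (12.1% and 12.4%) and 3 and 9 in ΔHx (13.3% and 12.3%). The median for High against Neg was -1.45 in WT and -0.43 in ΔHx. Noto and Foxj1, genes of the node and its cilia, were among those higher in WT High: Foxj1 was at 5123 ± 1273 (SD, n = 3) in WT High and 33.8 ± 33.3 in WT Neg (7.67, SE 0.47, adjusted p = 2.78e-10). Sp5, a Wnt target, was also higher there (2309 ± 147 against 819 ± 141). Ripply2 and Mesp2, genes of the forming somites, were among those lower in WT High: Mesp2 was at 6.39 ± 7.96 in WT High and 130 ± 32.0 in WT Neg, and Ripply2 at 2.80 ± 4.84 and 103 ± 20.7. Cyp26a1, which breaks down retinoic acid, was at 2546 ± 493 in WT Mid and 699.5 ± 101 in WT Neg (1.85, SE 0.22, adjusted p = 3.69e-06). Between genotypes, Dll1 was called in High, and Dll1 (0.55, SE 0.09, adjusted p = 0.00169) and Cyp26a1 (0.58, SE 0.13, adjusted p = 0.0344) were called higher in ΔHx as a mean over the gates. The Dll1 call in High was lost with those groups alone (adjusted p = 0.112). The Cyp26a1 call was lost with no filter (0.0609) and without any 1 of 11 libraries (adjusted p = 0.0513 to 0.0804).

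All 17 genes of the Eomes list were tested. Foxa2, the sorted gene, is on this list, so its rise over Neg was set by the gates (6.08 in WT High, 4.77 in WT Mid). The counts and medians below include it. For High against Neg 9 were higher and 5 lower in each genotype (22.6% and 21.8% of all genes in WT, 21.5% and 21.1% in ΔHx). Mid against Neg gave 9 and 0 in WT (17.4% and 15.4% of all genes) and 6 and 0 in ΔHx (17.9% and 16.5%), and High against Mid 5 and 6 in WT (12.1% and 12.4%) and 5 and 5 in ΔHx (13.3% and 12.3%). The median for High against Neg was 0.97 in WT and 1.04 in ΔHx. Cer1, a secreted antagonist of Nodal, was at 11433 ± 1437 (SD, n = 3) in WT High, 2977 ± 488 in WT Mid and 286 ± 81.8 in WT Neg. Sox17, an endoderm factor, was at 1880 ± 176 in WT Mid and 130 ± 42.5 in WT Neg (3.89, SE 0.18, adjusted p = 2.84e-11). Gata4, also an endoderm factor, was lower in WT High than in WT Neg (269 ± 112 against 631 ± 113, adjusted p = 0.00239), and Gata6 was not called there (200 ± 50.7 against 304 ± 52.0). Among the list's mesoderm genes, some were low in High and not in Mid: Mesp1 was at 37.5 ± 25.3 in WT High, 810 ± 342 in WT Mid and 916 ± 80.9 in WT Neg, and Pdgfra, a growth factor receptor, at 98.9 ± 44.2, 2626 ± 1567 and 2301 ± 202. None of the 17 was called between genotypes in any gate by limma (0.122%, 0.401% and 0.245% of all genes), although 1, 3 and 1 had an unadjusted p under 0.05 in High, Mid and Neg (7.86%, 7.96% and 4.17% of all genes). By edgeR and DESeq2 on the recovered reads 0 were called as well. Snai1 and some other genes stand on more than 1 of these lists.

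Only tested genes whose symbol is not a predicted or clone name were compared with the members for likeness. Among them, the genes most like each member were found by the root mean square (RMS) difference of mean-centred log2(value + 1) over the 18 libraries. For T they were Aff1 (0.29), Adck4 (0.31) and Elmo1 (0.33). For Eomes they were Golga4 (0.33), Foxp4 (0.34) and Mycbp2 (0.36), and for Tbx6 Tmem145 (0.22), Dll1 (0.28) and Dll3 (0.34). Dll3, a further Notch ligand gene, was at 700.2 ± 169 (SD, n = 3) in WT High, 1865 ± 168 in WT Mid and 1530 ± 61.1 in WT Neg. The likest genes to Tbx20 were Pim2 (0.32), Efna1 (0.33) and Crb2 (0.35), to Tbx1 Meis2 (0.52), Gbx2 (0.53) and Wnt5a (0.58), and to Tbx3 Pcsk5 (0.55), Gad1 (0.56) and Dlk1 (0.56). Tbx4 had only distant ones, with Gdf6 (0.95) first. Between members, Tbx1 and Tbx20 were closest (0.78), T was closest to Eomes (1.08), and T and Tbx4 were farthest apart (3.22). The libraries share gates and pools, so this likeness is a description.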

How the data were processed

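Single-end reads of 75 bases came from SMART-Seq2 libraries of sorted embryo cells, per the labels' protocols. What the authors deposited was 1 table of signal: per gene, reads over the library's size factor. The submitters' processing notes name STAR 2.5.2a and HTSeq 0.6.1 with DESeq and DESeq2, and mm10 as the build. The annotation they counted on was not given in the sources used here. Its 5 counter lines (reads not unique, 37.7% to 41.3% of what was counted, or without a feature, 7.17% to 12.1%, and the like) were left out of tests. Between 23.7% and 44.0% of reads in genes fell on Rn45s, a ribosomal precursor. Reads could be recovered, since 441054 of 441054 values were whole within 1e-06.

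limma 3.58.1 (R 4.3.3) was fitted to log2(value + 1) with 6 group means over 18 libraries and a trend in the variance, for genes at 10 or more in at least 3 libraries. Tests were two-sided, adjusted by Benjamini-Hochberg within each contrast. edgeR 4.0.16 (quasi-likelihood) and DESeq2 1.42.0 on the recovered reads, other pseudocounts, filters, scalings, a replicate block, a fit of only the groups compared, and leaving out each library were alternatives. On simulated data for ΔHx against WT in High (14409 genes), limma recovered 80 of 100 genes changed 2-fold and 99 of 100 changed 4-fold. It also called 5 unchanged genes. These rates were not split by level, so they do not give the recovery for members with few reads in High. Among those, Tbx1, Tbx2 and Tbx4 had means of 13.5, 3.11 and 3.21 in WT High. No 2 replicates of a group agreed within sampling noise (chi-square over its degrees of freedom at least 5.12), so each library counted as 1 sample. Groups came from the labels.

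Named genes were the 8 members, the 3 genes most like each member that reached a group mean of 50, and up to 4 called genes with the largest change per list and contrast. Members and lists were chosen with earlier results of these data known. Elf5, Rhox5, Sp5, Gata4, Gata6 and Eif2s3y were named after their values were seen. Gene positions and lengths came from GENCODE vM21, promoters from RefSeq (GRCm38.p6), with python 3.11.15.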

Additional observations from a re-analysis of the deposited data

How the results depend on the processing

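Of the 84 log2 differences reported for the members, 35 were called, and 25 of these kept direction and call in every setting run. No called value changed sign. The members' calls lost or gained without a single library are named in the report. Leaving out 1 library at a time gave 3 to 6 members called for WT Mid against WT Neg (5 with all libraries). Signs changed only for differences that were not called. For T, leaving out libraries gave -0.19 to 0.14 for ΔHx against WT in High, -0.19 to 0.14 in Mid, -0.11 to 0.41 in Neg and -0.0696 to 0.104 for the mean over the gates, which was -0.0154 in edgeR and -0.0150 in DESeq2. For Eomes it gave -0.73 to 0.0591 for WT High against WT Mid, -0.48 to 0.20 for ΔHx High against ΔHx Mid, and -0.0429 to 0.29 in High and -0.43 to 0.40 in Mid for ΔHx against WT. For Tbx3 it gave -0.28 to 0.14 for WT Mid against WT Neg (0.0382 in edgeR, 0.0313 in DESeq2, 0.0167 with equal totals without Rn45s), -0.19 to -0.0032 for ΔHx Mid against ΔHx Neg (0.00064 with equal totals), and -0.35 to 1.02, -0.0741 to 0.34 and -0.0068 to 0.26 for ΔHx against WT in High, Mid and Neg. The other ranges across 0 were -0.31 to 0.0439 (Tbx6) and -0.60 to 0.0775 (Tbx4) for ΔHx against WT in Neg, -0.15 to 0.31 (Tbx20) in Mid, and -0.26 to 1.06 for Tbx2 in WT High against WT Mid. The cause was not tested. Equal totals moved the median of all genes by 0.13 and 0.11 for High against Neg in WT and ΔHx. The labels do not say what same-numbered libraries share, so the main fit did not pair them and a replicate block was an alternative. Same-numbered libraries did not all correlate above 0.1 in any contrast. Between gates of a genotype, though, all these correlations were above 0 (0.0156 to 0.291). Whether the numbers pair libraries within a genotype was not settled. Each library correlated best with its own number in 3 of 3 cases between gates, and in 2, 0 and 1 of 3 between genotypes in High, Mid and Neg. With the replicate block, T in WT Mid against WT Neg was called (0.59, adjusted p = 0.0315, 6 members called), as was Tbx6 in ΔHx High against ΔHx Neg (adjusted p = 0.0180). With the filter at 50, Tbx2 was not tested. Depth limits Tbx2 in every group, with 53 reads at most (WT Neg) and 9 in ΔHx Neg. It limits Tbx4 outside Neg, where counts were at or under 20 reads per group. These settings were limma's unless another tool is named.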

Other observations

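Among the WT libraries, replicate 1 held the highest T in all 3 gates (15866, 3958 and 3105) and the lowest Tbx3 in all 3 gates (21.6, 523 and 526). WT Mid replicate 1 also held the highest sum of parietal endoderm markers, 226747 against 38039 and 61274 in the other WT Mid libraries and 15746 to 21522 in ΔHx Mid. Its T, Eomes and Tbx6 values (3958, 1275 and 881) lay among or just above those of the other Mid libraries. In ΔHx, replicate 3 held the lowest T in Mid (2241) and in Neg (1534) and the lowest Tbx6 in both (743 and 475), while its Eomes was the highest in Mid (1640) and in Neg (507). In High the same replicate held the highest T (12039), Tbx6 (434) and Eomes (1030) of its group. The labels do not say whether libraries with the same number share embryos.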
